A study of Ovis aries with 40 samples.

Results

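The HOX genes of the sheep lung were taken as every gene whose name in the count tables is HOXA, HOXB, HOXC or HOXD followed only by digits. This rule found 34 of 24478 genes: 9 each in the HOXA, HOXB and HOXC clusters and 7 in the HOXD cluster. HOX genes encode homeodomain transcription factors that give cells their position along the body axis. Within a cluster they lie in order of paralog number, and genes of low number are active further towards the head, while those of high number are active in the trunk, limbs and hind end. Genes of the low and middle numbers are known from mouse lung, where they are made mainly in the mesenchyme, the connective tissue around the airways.

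Bulk RNA sequencing was done on lung of American Romney sheep, with libraries primed by oligo dT, for proximal and distal tissue of each animal. WT fetuses came from natural breeding, and were taken at 65, 80, 100 and 120 days of gestation. The WT term lambs (147 days by the label) were born naturally and lived for a recorded time before tissue was taken. The CF animals were CFTR-/- sheep of the same 5 ages, made by somatic cell nuclear transfer from 1 male fetal fibroblast line in which exon 2 of the CFTR gene had been targeted. They are thus clones of a single line, so that genotype, cloning and the line's own genome and sex cannot be told apart. Each of the 20 combinations of genotype, region and age held 2 libraries, 40 in all. The 20 entries of age, genotype and replicate carried 18 animal labels: both WT day 100 replicates bore 1 label, and WT day 65 replicate 2 shared its label with CF day 100 replicate 2, so p-values measure the spread between these samples and some of that spread may be technical.

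Before term, WT libraries held 24670355 to 43700012 assigned reads and CF libraries 85773994 to 103139483. Term libraries, WT and CF, held 115937437 to 126749480. Genotype and depth before birth cannot be told apart. In WT, depth also rose with the step from day 120 to term and with birth, and these cannot be told apart either. CFTR itself was read in every library, at 8.8 to 45 CPM (counts scaled to the library total) in WT and 2.94 to 39.2 in CF, and both CF libraries lay below both WT libraries in 8 of 10 region and age combinations. These counts cover exons outside the targeted one, so they do not by themselves check the targeting. Tissue labelled as lung epithelial held 10 of 10 epithelial markers (577 to 2110 CPM summed) and 10 of 10 mesenchyme markers (3490 to 25800). The paired libraries of CF proximal day 120 correlated least (Pearson r = 0.793 of log2 CPM across genes with a mean count of at least 50, against 0.937 to 0.990 in every other group). Of the counts from 1 to 20, 69.2% to 85.8% were even numbers in each of the 40 libraries, with more than 80% in 3 CF libraries (proximal day 80 replicate 1, proximal day 120 replicate 2 and distal day 65 replicate 2). Whether a count stands for 1 fragment was not tested, so a low count, or the limit given for a count of 0, may rest on fewer fragments than counts.

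HOX transcripts of the lung came mainly from the HOXA and HOXB clusters. Levels are compared between genes as RPKM, which is the CPM divided by the exon length in kilobases. The HOXA cluster (Oar_v4.0, chromosome 4, 68804944 to 68911538) held 67.9% of the summed RPKM of the 34 genes, and 56.3% to 78.4% in single libraries. The HOXB cluster (chromosome 11, 37290203 to 37460240) held 29.1%, within 19.6% to 41.6%. The HOXC cluster (chromosome 3, 132153868 to 132269131) held 2.24% and the HOXD cluster (chromosome 2, 132830789 to 132926088) 0.736%. The order of the clusters A, B, C, D was thus the order of their means, and the ranges of A and B did not overlap.

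HOXA5, a factor of the lung mesenchyme that mouse lungs need for normal airways and alveoli, was the most abundant HOX gene, with a mean of 32.5 RPKM over 40 libraries and never less than 10.9. HOXA4 followed at 25.3 and HOXA3, known for its role in the pharyngeal arches and thymus, at 19.7. HOXB6 (12.5 RPKM) and HOXB2 (11.8) were the most abundant genes of the HOXB cluster. HOXB5, HOXA2 and HOXB3 lay between 5.53 and 4.36, and HOXB7 had 2.58. Of the genes in the naming rule, the 10 most abundant by RPKM were also the 10 most abundant by CPM, and in the libraries before term. Neighbours in the order overlapped in their ranges over libraries. The highest members of the other clusters were HOXC4 at 1.76 RPKM, HOXC6 at 1.02 and, for HOXD, HOXD8 at 0.345.

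**Figure D1:**
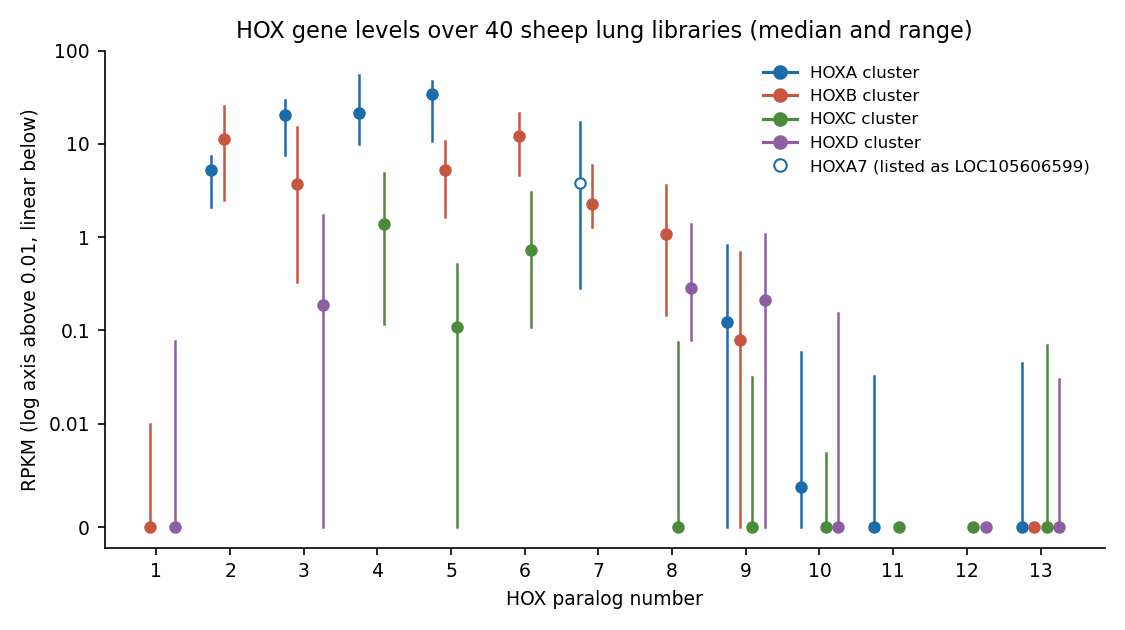
Median (point) and range (line) of HOX genes over the 40 libraries in RPKM, on an axis that is logarithmic above 0.01 and linear below, by paralog number and coloured by cluster; the open point is HOXA7, listed under its gene number. Genes numbered 2 to 6 of the HOXA and HOXB clusters fill the top of the plot, and those numbered 10 to 13 lie near 0.

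By paralog number, 63.3% of the summed RPKM of the 34 genes lay in genes numbered 4 to 8. Numbers 1 to 3 held 36.3% and the 15 genes numbered 9 to 13 held 0.467%. Among the 34 genes, the highest of each number was HOXB2, HOXA3, HOXA4, HOXA5, HOXB6, HOXB7 and HOXB8 for numbers 2 to 8. Beyond that the highest were HOXD9 at 0.239, HOXD10 at 0.0261, HOXA11 at 0.00262 and HOXA13 at 0.00382 RPKM. Number 12 had no reads. Among the genes numbered 9, HOXA9 had a mean of 0.187 and HOXB9 one of 0.140 RPKM. The gene model of HOXA9 spans HOXA5 and HOXA7, so part of its reads may belong to them. That of HOXA3 spans HOXA4 and HOXA5 and shares 85 exon bases with HOXA7 on the same strand. The same limit thus holds for HOXA3 and HOXA7.

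Genes of the hind end were close to absent from the reads, and so was HOXB1, of the most anterior group. HOXB13, HOXC11, HOXC12 and HOXD12 had no read in any of the 40 libraries, which allows up to 0.122 CPM in the shallowest library and 0.0237 in the deepest, for counting error only (an upper limit of 3 counts). HOXB1 and HOXC10 had 2 reads each over all libraries. HOXD13, which patterns digits and the genital tubercle, had 14 reads, HOXC13, known from hair, 18, and HOXC9 had 8. These 9 genes fell below the filter on low counts, and the other 25 of 34 passed it in the fit of all 40 libraries (9 in HOXA, 7 in HOXB, 4 in HOXC and 5 in HOXD). Just above the filter lay HOXC8 with 36 reads, HOXA11 with 43, HOXA13 with 70 and HOXD1, of the anterior group, with 80. In contrast, 14 genes had reads in all 40 libraries.

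HOXA7 is listed in the tables under its gene number, LOC105606599, and so lies outside the rule. It was named through RefSeq and is given here as the neighbour of HOXA5 and HOXA9, with a mean of 5.71 RPKM. That is above the 2.58 RPKM of HOXB7, and the shares and rankings above leave HOXA7 out. HOXD11, listed likewise as LOC101104380, had no reads. HOXA6, HOXB4 and HOXD4 were not analysed here.

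Between distal and proximal lung, the abundant HOX genes numbered 2 to 6 had small differences, and no gene of the naming rule passed 0.05 by edgeR. For the abundant genes the log2 difference of distal minus proximal was -0.14 for HOXA2, -0.07 for HOXA3, -0.09 for HOXA4 and 0.07 for HOXA5. In the HOXB cluster it was -0.11 for HOXB2, -0.02 for HOXB3 (SE 0.24), -0.12 for HOXB5 and 0.16 for HOXB6. HOXB7 had 0.37 (SE 0.15), with distal higher in 16 of 20 pairs of libraries with 1 animal label each. Single pairs of HOXB3 ranged from -2.79 to 3.20. The differences of the low genes HOXB8 and HOXA9 were larger, at 1.06 (SE 0.24) and 1.34 (SE 0.42). With 1 library left out they ranged from 0.85 to 1.19 for HOXB8 and from 1.01 to 2.22 for HOXA9. In the HOXC and HOXD clusters the tested genes HOXC4, HOXC5, HOXC6, HOXD3, HOXD8 and HOXD9 lay between -0.34 and 0.11. The tested genes HOXA10, HOXA11, HOXA13, HOXB9, HOXC8, HOXD1 and HOXD10 had no read in at least 1 whole group, and no difference is given for them.

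No HOX gene of the 25 tested passed the limits for a call, an adjusted p of 0.001 or less (edgeR quasi-likelihood test, Benjamini-Hochberg over all genes) with a log2 change no smaller than 0.58 in size. Among all genes, 0.00481% were called, and 0.0144% at a limit of 0.05, where again none of the 25 was. At an unadjusted p under 0.05 there were 4 of 25 HOX genes, HOXA9, HOXB7, HOXB8 and HOXB9, against 1.79% of all genes. DESeq2 called 1, HOXB9 (adjusted p = 6.43e-04), where it called 0.0337% of all genes, and at 0.05 also HOXB8 (adjusted p = 0.0152), where it called 0.111%. By edgeR the adjusted p was 0.0847 for HOXB9 and 0.317 for HOXB8.

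**Figure D2:**
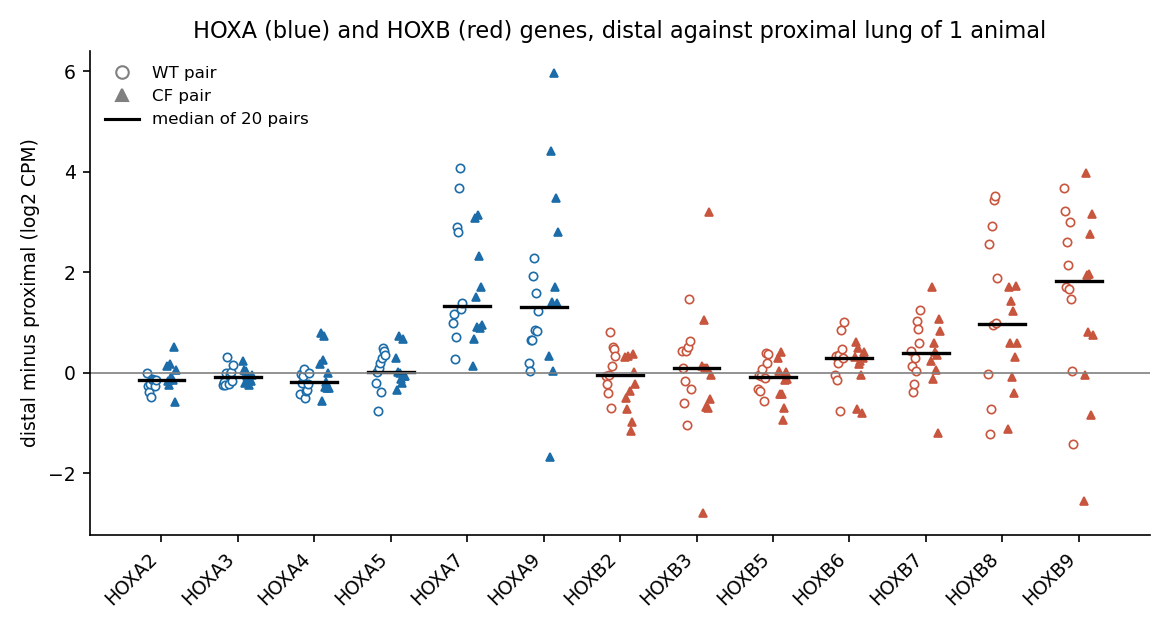
Log2 difference of distal minus proximal level (CPM) within each pair of libraries with 1 animal label for HOXA (blue) and HOXB (red) genes, with open circles for WT, triangles for CF (10 pairs each) and a bar at the median of 20. Points of HOXA7 are all above 0 and those of HOXA9 are above 0 in 19 of 20 pairs, while those of HOXA3 lie between -0.25 and 0.31.

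HOXA7 was higher in distal lung in every pair of libraries from 1 animal label. In WT proximal lung its level was 4.91 and 5.32 RPKM at day 65 and 7.64 and 4.42 at day 80. It was 1.47 and 1.44 at day 100, 0.807 and 0.717 at day 120, and 1.61 and 0.654 at term. In WT distal lung it stayed between 7.22 and 12.3 RPKM through day 120, with 3.89 and 1.72 at term. The WT distal libraries thus lay above the WT proximal libraries of the same age from day 65 to term, apart from day 80, where 7.22 in distal lung was under the 7.64 of a proximal library. In CF lung at day 65 the regions overlapped, with 3.73 and 2.47 RPKM in distal and 3.38 and 1.56 in proximal lung. The CF distal libraries held 17.0 and 14.6 RPKM at day 80 and 11.9 and 13.2 at day 100, against 1.99 and 5.14, and 6.30 and 1.49, in proximal lung. At CF day 120 the distal replicates were far apart, at 15.7 and 0.536 RPKM, against 3.12 and 0.284 in proximal lung. At CF term they were 3.79 and 3.14, against 1.16 and 1.63.

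HOXA7 was higher in distal lung by 1.73 on the log2 scale (SE 0.29, adjusted p = 0.0218 by edgeR), with distal above proximal in 20 of 20 pairs, which bear 18 animal labels. That passed 0.05 and missed the limit of 0.001. The value also rose over 0.05, to between 0.052 and 0.073, without any 1 of WT proximal day 65 replicate 2, day 80 replicate 2, either replicate of days 100 and 120, or term replicate 2, WT distal term replicate 1, or CF proximal day 65 replicate 2, day 100 replicate 2 or term replicate 1. With the pair of libraries as a block it passed (log2 difference 1.74, adjusted p = 1.71e-04), and so it did with the 18 animal labels as the block (1.74, adjusted p = 4.57e-05). With a single region effect in place of 1 per group the blocked adjusted p was 0.0049. Without CF distal day 120 replicate 2 it also passed unblocked, at 1.83 with an adjusted p of 4.13e-04. The adjusted p was 0.118 in the libraries before term alone and 0.125 with the WT day 100 replicates, which bear 1 animal label, summed.

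HOXB9, a marker of trunk identity, had counts too low for a firm value. In WT proximal lung all 4 libraries of days 65 and 80 had 0 reads, and those of days 100 and 120 had 2 each. The WT distal libraries before term had 2 to 16 reads. At CF day 65 the order was the other way, with 0 and 9 reads in distal and 14 and 10 in proximal lung. In CF distal lung the counts were 128 and 116 at day 80, 32 and 109 at day 100, and 78 and 10 at day 120, while the CF proximal libraries before term had 6 to 28. At term the WT regions overlapped, with 24 and 92 reads in proximal and 24 and 31 in distal lung. Distal was above proximal in 16 of 20 pairs.

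HOXB8 had 0.291 to 0.442 RPKM as a group mean in WT proximal lung before term, from 4 to 12 reads per library. In WT distal lung its replicates were 0.331 and 2.66 at day 65, 0.231 and 0.171 at day 80, 1.31 and 1.14 at day 100, and 3.58 and 3.60 at day 120. At WT term it had 1.86 and 1.51 in distal and 0.911 and 0.384 in proximal lung. Both WT distal libraries were thus above both proximal ones at days 100 and 120 and at term, and not at days 65 and 80. Distal was above proximal in 7 of 10 WT and 7 of 10 CF pairs, and CF replicate 1 of days 65, 100 and 120 had the other order. HOXA9 in WT had 0.154 and 0.134 RPKM in proximal and 0.178 and 0.138 in distal lung at day 65, and at day 100, where the WT regions lay furthest apart, means of 0.0854 and 0.372. Distal was above proximal in 10 of 10 WT and 9 of 10 CF pairs. In CF proximal day 120 replicate 2, HOXA9 had no read, and in the distal library of that pair 26 reads against 467 in the other replicate.

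**Figure D3:**
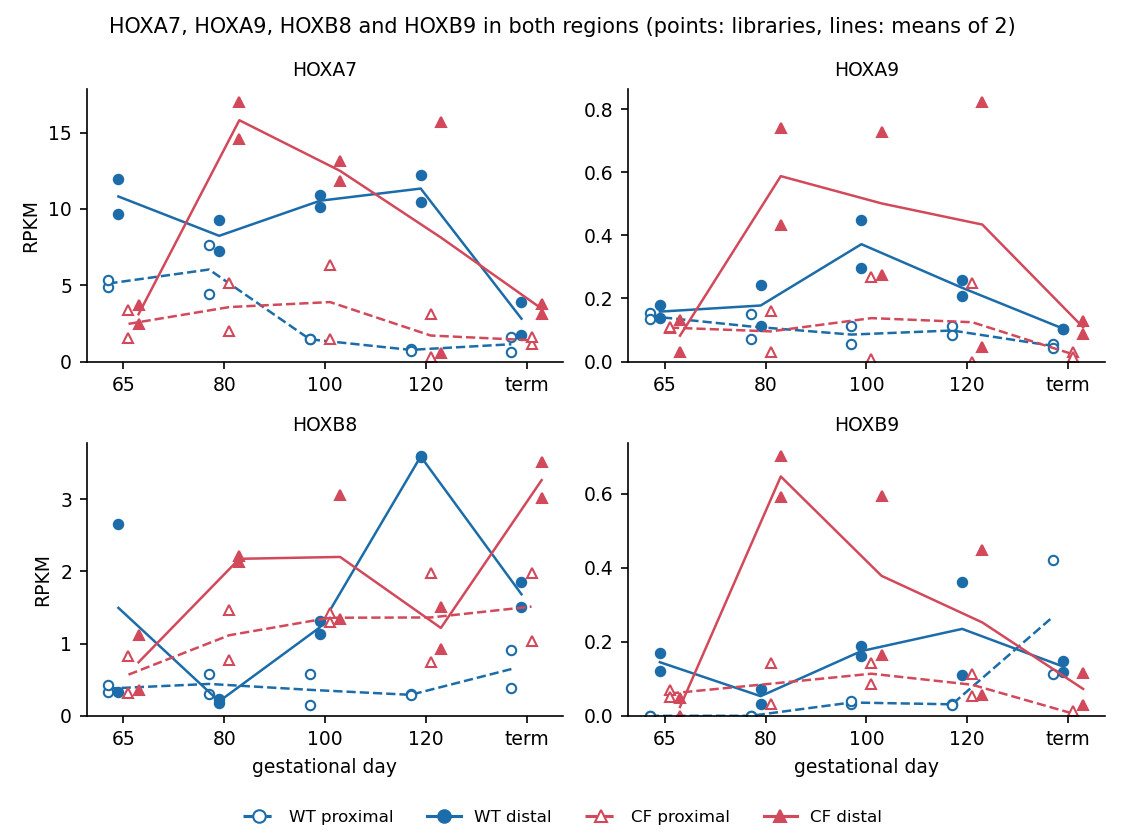
RPKM of HOXA7, HOXA9, HOXB8 and HOXB9 over gestational age (ages equally spaced) in proximal lung (open points, dashed lines) and distal lung (filled points, solid lines) of WT (circles) and CF (triangles) animals; points are libraries and lines means of 2. In WT distal lung HOXA7 stays at or above 7.22 RPKM through day 120, while in WT proximal lung it lies at 0.654 to 1.61 RPKM from day 100.

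The regional differences did not pass a test of differing between genotypes or ages. For region by genotype, 0 of 25 HOX genes were called by edgeR against 0% of all genes, with 0 at an unadjusted p under 0.05 (2.03% of all genes) and 0 by DESeq2. For region by age, 0 of 25 were called by edgeR against 0% of all genes, with 0 at an unadjusted p under 0.05 over both genotypes (1.36% of all genes) and 0 by DESeq2. Within WT alone 2 of 25, HOXB8 and HOXB9, had an unadjusted p under 0.05 (0.0124 and 0.0244), against 1.33% of all genes, and an adjusted p of 1.0 by edgeR. There, HOXA7 had an unadjusted p of 6.73e-04 for region by age with the pair of libraries as a block (adjusted p = 1.0 by edgeR). Of all tested markers of cell types, 1, TWIST1 of the mesenchyme list, was lower in distal lung at a limit of 0.05. The median log2 difference of distal minus proximal was -1.41 over 9 heart muscle and -0.59 over 7 skeletal muscle markers, and their part in the HOX values was not tested. Of the 9 HOX cofactors (PBX, MEIS and PKNOX proteins that bind DNA with HOX proteins), none was called between regions. In bulk tissue, fewer cells of a type and less RNA per cell cannot be told apart.

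Over gestation the anterior and middle HOX genes had their lowest summed level at term in WT lung. Summed over the 34 genes, HOX transcripts stood at 227 and 269 CPM in WT proximal lung at day 65, 184 and 179 at day 120, and 109 and 81.9 at term. In WT distal lung they stood at 194 and 260, then 201 and 210, and then 115 and 103. CF lung held 307 and 306 in proximal and 359 and 331 in distal tissue at day 65. Its replicates at term were further apart than those of WT, at 220 and 146 in proximal and 222 and 140 in distal lung. WT libraries at term lay below every WT library of the earlier ages in both regions.

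**Figure D4:**
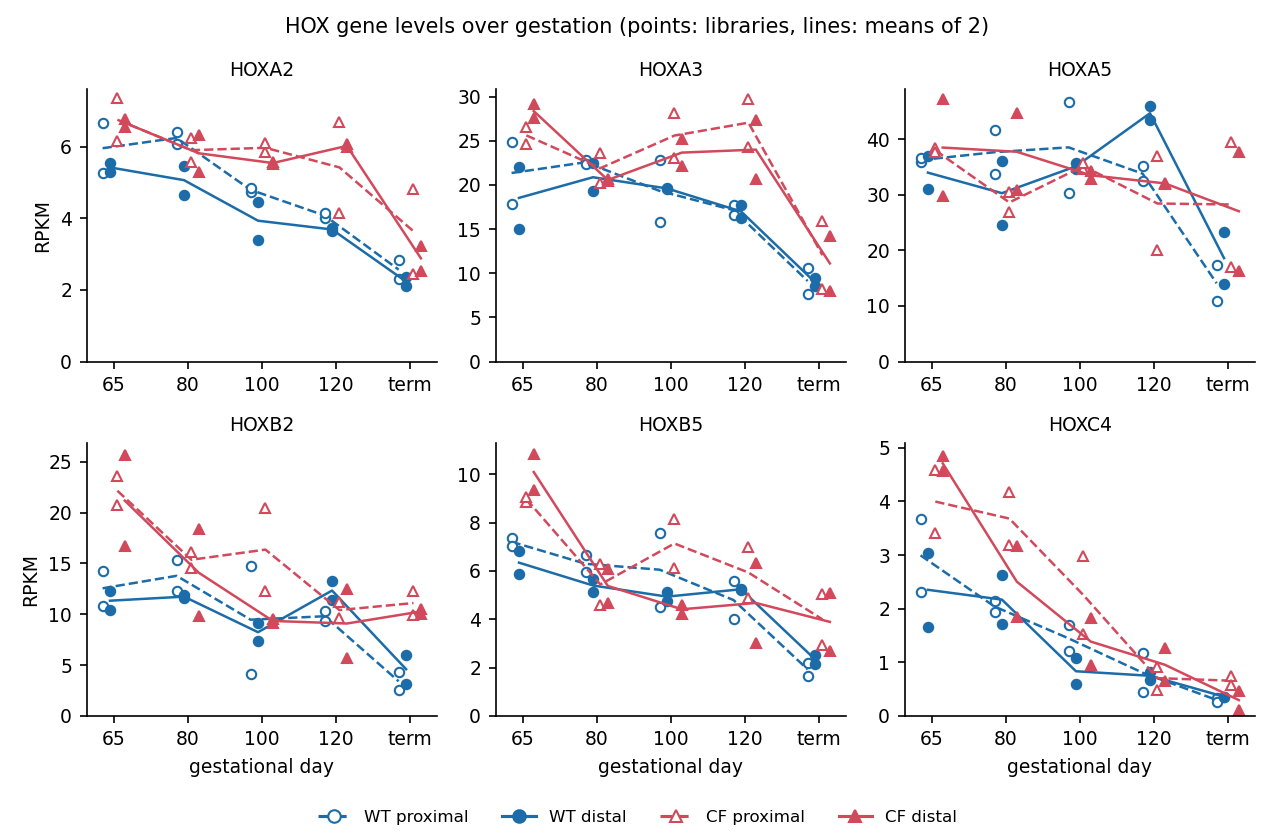
RPKM of HOXA2, HOXA3, HOXA5, HOXB2, HOXB5 and HOXC4 over gestational age (equally spaced), with points for libraries and lines through means of 2 for each genotype and region. The 4 WT libraries at term lie between 1.65 and 2.53 RPKM for HOXB5, below every earlier WT library, while the CF replicates at term are spread apart.

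HOXB5, a mesenchymal factor with a known role in airway branching, gave the only call over the 5 ages at the limit of 0.001. In WT distal lung its level was 5.88 and 6.81 RPKM at day 65, 5.14 and 5.66 at day 80, and 4.74 and 5.13 at day 100. It was 5.23 and 5.26 at day 120 and 2.53 and 2.15 at term, so both term libraries lay below all 8 earlier ones. The adjusted p for any change was 6.29e-04 (edgeR). Leaving out any of the 10 WT distal libraries ended this call, with adjusted p-values from 0.00112 to 0.00337. In WT proximal lung HOXB5 went from 7.37 and 7.05 RPKM at day 65 to 5.6 and 3.99 at day 120 and 2.19 and 1.65 at term (adjusted p = 0.00333).

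At 0.001, then, 1 of 19 HOX genes changed over the ages in WT distal lung, where 7.48% of all genes did, and 0 of 18 in WT proximal lung, where 10.6% did. In CF lung 0 of 21 changed in proximal tissue (0.0254% of all genes) and 0 of 21 in distal tissue (3.59%). At 0.05 the numbers were 9 of 18 in WT proximal lung (40.8% of all genes), 10 of 19 in WT distal lung (40.4%), 1 of 21 in CF proximal lung (5.36%) and 5 of 21 in CF distal lung (33.9%). Over the 4 courses 32 of 79 HOX tests had an unadjusted p under 0.05 (42.0% of the tests of all genes), and DESeq2 called 20 (26.6%). At 0.05 the shares of HOX genes in WT lung were thus close to those of all genes, and at 0.001 they were below them.

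Between consecutive ages, 0 of 316 HOX tests in 16 comparisons were called by edgeR at 0.001 (0.227% of the tests of all genes), 42 had an unadjusted p under 0.05 (15.4% of all tests), and DESeq2 called 9 (3.29%). At 0.05 there were 17, in 9 genes, all of them lower at term than at day 120. For WT, age, birth and depth cannot be told apart in this step, and its counts were not thinned to equal depth. In WT proximal lung 6 of 18 genes fell, where 8.78% of all genes did, among them HOXB3 by 1.59, HOXB5 by 1.32, HOXA5 by 1.27, HOXA3 by 0.91 and HOXA2 by 0.67 on the log2 scale. In WT distal lung 8 of 19 fell (10.5% of all genes). They included the same 6 genes, with HOXB5 down by 1.18 (SE 0.14, adjusted p = 0.00116) and HOXB3 down by 2.28, and in addition HOXB2, down by 1.45, and HOXB6, down by 0.74. HOXB5 passed 0.001 there when WT distal term replicate 1 was left out (log2 change -1.29, adjusted p = 7.14e-04).

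Most of these falls at 0.05 depended on single libraries, and some on the setting of the fit. Over the alternative fits (edgeR or DESeq2), the adjusted p reached 0.366 for HOXB3, 0.275 for HOXA2 and 0.0895 for HOXA3 in WT proximal lung. In WT distal lung it reached 0.109 for HOXB6 and 0.0505 for HOXA2. The other named falls stayed under 0.05 over these fits, apart from that of HOXA5 in proximal lung. In WT proximal lung HOXA5 stayed under 0.05 by edgeR with any 1 library left out. It did not when the 20 proximal libraries, WT and CF, shared 1 fit (adjusted p = 0.067). HOXB5 went to 0.0519 and 0.0539 without day 120 replicate 1 or term replicate 2, and HOXA3 to 0.119 at most without either day 120 replicate or term replicate 2. HOXB3 passed over 0.05, to 0.171 at most, without any 1 of the day 120 and term replicates, and HOXA2 to 0.202 at most without any 1 of those, either day 80 replicate or day 100 replicate 1. Of the WT distal falls, those of HOXB5, HOXA3 and HOXA5 stayed under 0.05, while HOXB2 went to 0.058 and HOXB3 to 0.0573 without day 120 replicate 2. HOXA2 passed over 0.05, to 0.124 at most, without any 1 of the day 80, 100 and 120 replicates or term replicate 2, and HOXB6 to 0.173 at most without any 1 of the day 80, 100 and 120 replicates or term replicate 1.

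HOXA5 and HOXA3 show the size of the fall in single libraries. HOXA5 held 35.2 and 32.4 RPKM in WT proximal lung at day 120 and 17.3 and 10.9 at term, and in distal lung 43.4 and 45.9, then 23.2 and 13.9. HOXA3 held 16.6 and 17.7 RPKM in WT proximal lung at day 120 and 10.6 and 7.68 at term, and in distal lung 16.3 and 17.8, then 9.44 and 8.5. For both genes the groups did not overlap.

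Not every HOX gene had a lower value at term in WT lung. HOXB7 had 1.51 and 1.66 RPKM in WT proximal lung at day 120 and 2.05 and 1.67 at term, and in distal lung 3.12 and 3.05, then 3.11 and 3.96. HOXD9 had 10 and 14 reads in WT proximal lung at day 120 and 77 and 72 at term, in libraries of greater depth, which is 0.136 and 0.179 RPKM against 0.310 and 0.279. None of these differences passed the limit of 0.05.

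In CF lung, the fall from day 120 to term passed at 0.05 for 0 of 21 HOX genes in proximal tissue, where 0.279% of all genes fell, and for 3 of 21 in distal tissue, where 11.4% did. The 3 were HOXD3 (log2 change -3.30), HOXA3 (-1.11) and HOXA2 (-1.07), and each was over 0.05 by edgeR without term replicate 2 (adjusted p = 0.135, 0.0686 and 0.0638). HOXD3 and HOXA2 were also over it without day 120 replicate 1 (0.0921 and 0.0575), and HOXA3 without day 120 replicate 2 (0.0527). HOXA3 in CF distal lung held 20.7 and 27.3 RPKM at day 120 and 14.3 and 7.97 at term, without overlap. HOXA5 had 32.1 and 32.0 at day 120 and 37.8 and 16.3 at term, so that its term replicates lay on either side. HOXB2 and HOXB6 had log2 changes of 0.18 and 0.85 in CF distal lung. Whether the change over age differed between genotypes was tested directly: 0 of 22 HOX genes were called by edgeR in proximal lung (0% of all genes) and 0 of 22 in distal lung (0.0398%), with 7 of 44 at an unadjusted p under 0.05 (15.6% of all tests) and 0 by DESeq2 (3.72%). The lowest adjusted p was 0.068, for HOXB8 in distal lung.

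HOXC4 was the 1 HOX gene that changed at 0.05 in all 4 courses, with adjusted p-values of 0.00632 in WT proximal, 0.00809 in WT distal, 0.0492 in CF proximal and 0.0138 in CF distal lung. It was highest at the earliest ages. In WT proximal lung it had 2.31 and 3.68 RPKM at day 65, 1.94 and 2.14 at day 80, 1.69 and 1.2 at day 100, 0.437 and 1.17 at day 120, and 0.337 and 0.255 at term. In CF distal lung it had 4.57 and 4.85 at day 65 and 0.471 and 0.116 at term. Unlike HOXA5 and HOXA3, most of its decline thus lay before day 120.

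Cell type markers moved with the term libraries. From day 120 to term in WT, 5 of 10 mesenchyme markers were lower at 0.05 in proximal and 4 in distal lung, and their sum ranged from 7850 to 13300 CPM before term and from 3520 to 5670 at term in proximal lung, with 8840 to 11200 and 4960 to 6710 in distal lung. Of 10 epithelial markers, 7 were higher in proximal and 5 in distal lung, of 10 leukocyte markers 5 in each, and of 9 erythroid markers 8 in each were lower. Of all genes, 2052 of 18186 were higher in proximal and 2154 of 18277 in distal lung. No marker of these lists was at 0 in all libraries. The summed mesenchyme markers in CF were 8760 to 25800 before term and 4570 to 9140 at term in proximal lung, and 9160 to 15000 and 3490 to 8310 in distal lung. At 0.05, 2 of these markers were higher and 2 lower at term in CF distal lung, and 0 passed by edgeR in CF proximal lung. At 0.05 in CF distal lung, 6 of 9 smooth muscle markers (median log2 change -2.25) and 5 of 9 erythroid markers were lower at term, and 8 of 10 leukocyte and 6 of 10 epithelial markers were higher, while in CF proximal lung 2 smooth muscle markers were lower and no marker of the other 3 lists passed 0.05. In WT, smooth muscle had 4 markers higher and 1 lower in distal and 3 higher and 1 lower in proximal lung. The part of these shifts in the HOX values was not tested. HOXB3 shares 191 of its 990 exon bases (19.3%) with an antisense gene. Reads in these bases cannot be told apart from that gene's if the counting ignored strand, which is not given in the sources used here.

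For genes that work with HOX proteins or on HOX chromatin, the background is the share of all genes lower at term at 0.05, which was 8.78% in WT proximal and 10.5% in WT distal lung. At 0.001, 2.14% and 1.15% of all genes were called, 219 higher and 170 lower in proximal and 114 higher and 96 lower in distal lung. Of 9 HOX cofactors, 1 was called lower at term in each WT region: MEIS2, by 1.44 in proximal and 1.61 in distal lung (adjusted p = 7.22e-04 and 9.73e-04 by edgeR). At 0.05, 2 of 9 were lower in each. Of 17 Polycomb genes, whose complexes keep HOX clusters silent, 4 were lower at 0.05 in each WT region, and of 9 tested Trithorax genes, which keep them active, 2, with 0 of either list called by edgeR at 0.001. Of 14 tested retinoic acid genes in proximal and 13 in distal lung, DHRS3, which reduces retinaldehyde and whose own transcription follows retinoic acid, rose by 2.34 and 2.41. At 0.05, 2 of these genes were higher and 1 lower in proximal lung, and 4 were higher in distal lung, beside the counts of all genes higher given above. Of 10 other factors of lung mesenchyme, 7 in proximal and 6 in distal lung were lower at 0.05, and FGF10, the signal for bud growth, fell by 3.10 and 3.19. The CDX factors, which set HOX genes in the hind trunk, were at or below 0.136 CPM in sum in every library.

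In CF lung a few HOX genes were called higher than in WT lung over all ages, most clearly HOXA4 and HOXC6. As a mean of the 5 ages, the log2 difference was above 0 for 21 of 22 tested HOX genes in proximal and 20 of 22 in distal lung. The medians of these differences were 0.64 and 0.41, against 0.04 and 0.01 for all genes. A shift of the HOX genes as a set was not tested. Averaged over the 5 ages, 3 of 22 HOX genes were called in proximal lung, all higher in CF (2.22% of all genes were called higher), and 2 of 22 in distal lung (4.73%). At 0.05 the numbers were 7 of 22 (10.1% of all genes) and 4 of 22 (9.87%), again all higher. Over both regions 19 of 44 HOX tests had an unadjusted p under 0.05 (38.1% of the tests of all genes), and DESeq2 called 7 (9.96%).

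HOXA4 held 17.5 and 22.2 RPKM in WT proximal lung at day 65 and 31.4 and 27.6 in CF. At day 120 it held 15.1 and 17.5 in WT and 37.0 and 55.3 in CF, and at term 11.5 and 10.3 in WT and 30.1 and 21.4 in CF. In distal lung at day 65 it held 13.1 and 21.7 in WT and 35.5 and 47.9 in CF, and at term 9.87 and 10.3, against 30.0 and 17.4. Both CF libraries lay above both WT libraries at all 5 ages in both regions. The difference was 1.05 in proximal lung (SE 0.16, adjusted p = 7.12e-04) and 1.26 in distal lung (SE 0.13, adjusted p = 6.56e-06), or 2.07-fold and 2.4-fold. Neighbouring HOXA5 differed by 0.06 (SE 0.17) and 0.10 (SE 0.15) and HOXA3 by 0.34 (SE 0.13) and 0.34 (SE 0.11).

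HOXC6 was a low gene in WT lung, at 0.107 to 0.739 RPKM, and reached 0.715 to 3.07 RPKM in CF lung. In proximal lung at day 80 it had 0.202 and 0.454 RPKM in WT and 1.70 and 2.50 in CF, and in distal lung 0.107 and 0.160 against 1.38 and 2.7. Both CF libraries again lay above both WT libraries at all 5 ages in both regions. The difference was 2.28 in proximal lung (SE 0.37, adjusted p = 9.76e-04) and 1.96 in distal lung (SE 0.31, adjusted p = 3.44e-04). The WT values rest on 4 to 86 reads per library.

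HOXD3 was called in proximal lung, 2.91 higher in CF (SE 0.38, adjusted p = 2.16e-04). Its WT proximal libraries had 1 to 19 reads, and the CF ones 22 to 240. The means over the 10 libraries were 0.0936 RPKM in WT and 0.629 in CF. In distal lung it was 1.57 higher (adjusted p = 0.0304), and both CF libraries lay above both WT libraries at the 4 ages before term. This value was 2.92 without WT day 100 replicate 2 and 2.89 without WT day 120 replicate 2. It was over 0.05 (adjusted p = 0.0531 to 0.104) without WT day 65 replicate 2, day 80 replicate 1 or term replicate 1, or CF day 65 replicate 1, day 80 replicate 1, day 100 replicate 2 or term replicate 1. At term the order was reversed there, with 0.0656 and 0.0277 RPKM in CF against 0.112 and 0.136 in WT.

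**Figure D5:**
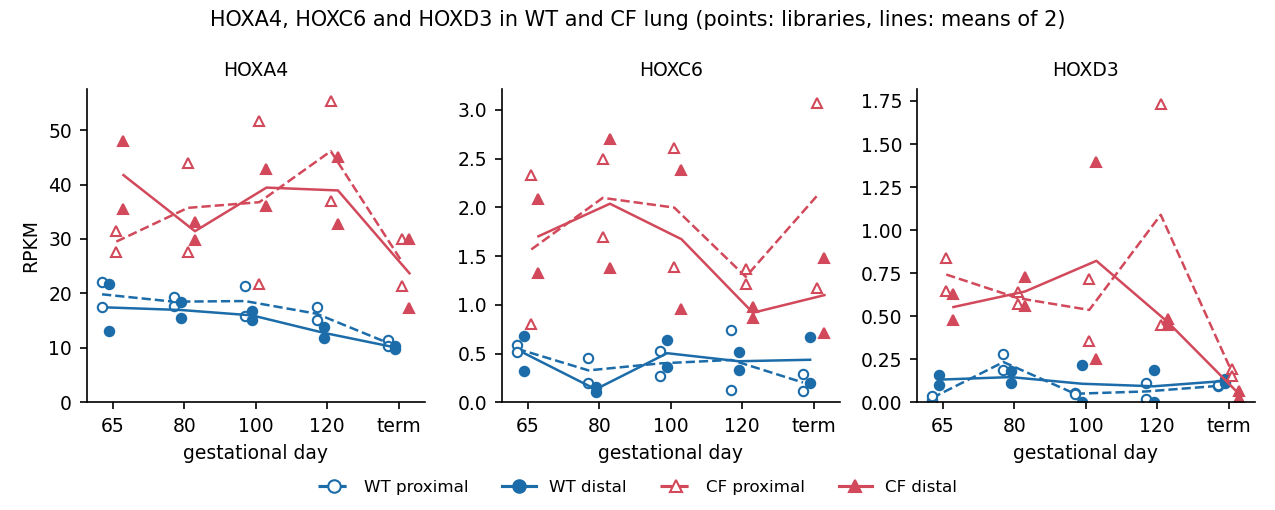
RPKM of HOXA4, HOXC6 and HOXD3 over gestational age (equally spaced) in WT and CF lung, with points for libraries and lines through means of 2, for proximal and distal tissue. The CF points of HOXA4 and HOXC6 lie above the WT points of the same age and region throughout, and those of HOXD3 do so at every age but term in distal lung.

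Several of these calls lay close to the limit. HOXA4 in distal lung passed with any of its 20 libraries left out. HOXA4 in proximal lung passed only when the library left out was CF day 80 replicate 2, CF day 100 replicate 1 or either CF day 120 replicate, and without any of the others its adjusted p was 0.00105 to 0.00287. HOXC6 in proximal lung passed only without WT day 120 replicate 2 or either CF day 120 replicate, with 0.00107 to 0.0036 otherwise. HOXC6 in distal lung was lost without WT day 65 replicate 1, any WT library of days 80 and 100, WT day 120 replicate 1, CF day 80 replicate 2 or CF day 100 replicate 2 (0.00102 to 0.00154). HOXD3 in proximal lung was lost without WT day 65 replicate 1, WT day 80 replicate 2, WT day 100 replicate 1 or either WT term replicate (0.00103 to 0.00124). With the replicate number as a block, HOXA4 and HOXC6 in proximal lung missed the limit. They missed it too with the WT day 100 libraries of 1 animal label summed, in the libraries before term alone (0.00464 and 0.00577, the highest of the other settings) and without the CF libraries with over 80% even counts, and HOXC6 also under RLE scaling. HOXC6 in distal lung missed it with the WT day 100 libraries summed (0.00127). Every one of these values was under 0.05 with the direction kept.

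At 0.05, proximal lung added HOXB8 (1.46 higher in CF, adjusted p = 0.0106), HOXC5 (1.87, 0.0178), HOXB2 (0.71, 0.0247) and HOXD8 (0.96, 0.0329), and distal lung added HOXD3 and HOXD8 (0.97, 0.0347). HOXB8 stayed under 0.05 with any 1 library left out, and HOXC5 did too, at 3.23 without WT day 100 replicate 1. In the libraries before term alone HOXC5 was over 0.05 (adjusted p = 0.0698), and so were HOXB2 (0.45, adjusted p = 0.19) and HOXD8 in both regions. Thinned to equal depth, HOXD3 in distal lung was over it as well (adjusted p = 0.126). HOXD8 was also over 0.05 in both regions with the WT day 100 libraries summed and without the CF libraries with over 80% even counts, at 0.0766 at most in proximal and 0.0661 in distal lung. HOXB2 was over 0.05 (0.0512 to 0.06) without WT day 65 replicate 1, day 80 replicate 2, day 120 replicate 2 or term replicate 2, or CF day 65 or day 100 replicate 2. HOXD8 in proximal lung was under 0.05 only without WT day 80 replicate 2, WT day 120 replicate 1, WT term replicate 1 or CF day 65 replicate 2, CF day 100 replicate 1, CF day 120 replicate 1 or CF term replicate 1, and otherwise reached 0.0918. In distal lung it was under 0.05 only without WT day 65 replicate 1, WT day 80 replicate 2, WT day 120 replicate 1, CF day 100 replicate 1, CF day 120 replicate 2 or CF term replicate 1, and otherwise reached 0.131. HOXA2 and HOXA3 in distal lung had adjusted p-values of 0.00354 and 0.0274 with differences of 0.42 and 0.34, under the limit on fold change. Of the HOXC cluster, HOXC4 differed by 0.57 in proximal and 0.41 in distal lung and missed 0.05 in both.

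At single ages, 0 of 220 HOX tests were called by edgeR (0.206% of the tests of all genes), 49 had an unadjusted p under 0.05 (18.9% of all tests), and DESeq2 called 8 (2.7%). At 0.05 there were 12, of which 11 were higher in CF, where 2.64% of all tests were higher. HOXA4 in distal lung accounted for 4 of them: 1.26 at day 65, 1.29 at day 100, 1.62 at day 120 (adjusted p = 0.00644) and 1.26 at term. HOXC6 differed by 3.90 at day 80 in distal lung and by 3.37 at term in proximal lung. Others were HOXD3 in proximal lung at day 120 (4.09), HOXB8 in distal lung at day 80 (3.43), HOXB2 in proximal lung at term (1.71), and HOXB6 (1.00) in distal lung at term. The 1 lower value was HOXB9 in proximal lung at term (adjusted p = 0.0441), from 0 and 2 reads in CF and 24 and 92 in WT.

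Between genotypes, 2.61% of all genes were called in proximal and 5.94% in distal lung, and the calls among other genes of the HOX pathway are to be read against these shares. Of 9 HOX cofactors 0 were called by edgeR in either region. At 0.05, where 10.1% of all genes were higher in CF proximal and 9.87% in CF distal lung, MEIS3 was higher in both (0.80 and 0.68). PBX4 was higher at 0.05 in proximal lung (1.11). Of 17 Polycomb genes, PCGF2 was called higher in distal lung (0.61), and of 9 Trithorax genes MEN1, a subunit of a complex that methylates histone H3, in proximal lung (0.60). Of 14 retinoic acid genes in distal lung DHRS3 was called higher (0.67) and ALDH1A1, which makes retinoic acid, lower (-0.66). Of 10 factors of lung mesenchyme, GLI1, a target and effector of Hedgehog signalling, was called higher in distal lung (1.24).

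Some markers of muscle and cartilage cells also differed between genotypes. Of 9 tested smooth muscle markers, 3 were called higher in CF proximal and 4 in CF distal lung, and their sum before term was 873 to 1660 CPM in CF proximal against 372 to 874 in WT proximal lung, and 754 to 1740 against 365 to 921 in distal lung. At term the sums were 410 to 701 in CF against 680 to 1030 in WT proximal lung. Of 8 tested cartilage markers, COL11A2 and COL9A3 were called higher in both regions. Of 10 mesenchyme markers 0 were called by edgeR, with 3 higher at 0.05 in proximal and 0 in distal lung. Of the heart muscle markers, 1 of 9 tested was called higher in CF proximal and 2 of 8 in CF distal lung, with median log2 differences of 2.71 and 0.17, and they summed to 10.2 to 43.6 CPM in WT and 26.6 to 1600 in CF libraries, without a marker at 0 throughout. In proximal and distal lung, respectively, calls were made for 1 and 1 of the skeletal muscle markers (TNNT3), 1 and 0 of the neuron markers (SNAP25), 0 and 1 of the endothelial markers (VWF), 0 and 1 of the thymus and lymphoid markers (CD8B), and 0 and 0 of the epithelial, leukocyte, erythroid and mesothelial markers. The part of these shifts in the HOX values was not tested.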

How the data were processed

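Per the labels, total RNA of snap-frozen lung was made into libraries by oligo dT priming and sequenced as paired ends. The authors aligned the reads with STAR (version 2.6 by the submitters' processing notes) to Oar_v4.0 and deposited raw read counts per gene from featureCounts 1.6.3 of Subread, with each gene's exon length in bases, in tables that were not normalized. Whether strand was used in counting is not given in the sources used here.

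From the deposited counts, genes were kept by filterByExpr (minimum count 10, total 15) and scaled by TMM in edgeR 4.0.16 (R 4.3.3). Quasi-likelihood tests were fitted on all kept genes, with Benjamini-Hochberg adjustment over all of them and 1 mean per group: over 40 libraries for region, 10 for each course over age and 20 for each region's comparison of genotypes. Calls required adjusted p-values no higher than 0.001 together with a log2 change of 0.58 or more in size, and in tests of any change the adjusted p alone. RPKM uses TMM-scaled totals and the deposited length, and log2 levels per animal have a prior count of 2. DESeq2 1.42.0 was an alternative. Counts of 0 allow up to 3 counts.

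Both regions of an animal carry its label, which pairs them; deviations of replicates correlated from -0.176 to 0.759 between regions (6 of 10 groups over 0.1), so the pair of libraries, and as an alternative the animal label, was fitted as a block for region. HOX members were named by the rule on gene names, and genes with values are those called, those leading a cluster or paralog number and those next to the filter. HOXA7 and the differences at 0.05 were added after their values were seen. The HOX members and the gene lists (HOX cofactors, CDX, retinoic acid, Polycomb, Trithorax, lung mesenchyme factors and cell type markers) were chosen with earlier results of these data known. RefSeq gave names only, and HOX sequences were not used here. One HOX gene stays in the counts and summed levels, and its own values are not reported here.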

Additional observations from a re-analysis of the deposited data

How the results depend on the processing

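Of 342 alternative values for counts of HOX calls, 299 stayed within 1.5 times the reported count. None of 777 alternative values for single HOX genes turned its direction, while 56 no longer passed the limit of 0.001 and 18 newly passed it. Among these single genes, only the 5 calls of CF against WT over all ages could lose this limit. All 56 losses fell among those 5 calls. For the other results, a rise over 0.05 was not counted as a loss. For region (0 calls), DESeq2 gave 1. For change over the 5 ages (1 call), DESeq2 gave 20, a limit of 0.05 gave 25 and no filter on low counts 3. There were 0 with the 20 libraries of a region, WT and CF, in 1 fit. Summing the WT day 100 replicates and the replicate number as a block also gave 0, while leaving out single libraries gave 0 to 1. For consecutive ages (0 calls), DESeq2 gave 9, a limit of 0.05 gave 17, no filter 1, and leaving out single libraries 0 to 1. For CF against WT over all ages (5 calls), a limit of 0.05 gave 11, summing the WT day 100 replicates 2, the replicate number as a block 3, the libraries before term alone 3, the CF libraries with over 80% even counts left out 3, and single libraries left out 2 to 5. At single ages (0 calls), DESeq2 gave 8 and a limit of 0.05 gave 12. The cause of these shifts was not tested.

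Replicate numbers did not pair samples across ages (median correlation of deviations 0.0245, 16 of 40 over 0.1) or genotypes (median 0.0615, 4 of 10), and the block changed no other count of HOX calls. RLE scaling kept each count within 1.5 times, and so did no limit on fold where such a limit applied. Thinning to equal depth (seed 21) did so in the fits for region and genotype, and was not run for the courses over age. The alternatives before term, without even-count libraries, with 1 region effect and with the animal label as the block, and the test of region by age, were chosen after seeing the data. Fits for region without a library kept the genes and dispersion trend of the 40-library fit. With 24670355 reads in the shallowest library, HOX genes numbered 9 and above rest on few reads.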
